A study of Mus musculus with 10 samples.

Results

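Glycolysis was followed through 32 genes of 31053 counted genes, chosen by name: the transporters, enzymes and regulators that carry glucose to pyruvate and lactate, with Ldha and Ldhb for lactate dehydrogenase and 3 genes of the reverse route. The list was set from gene names, with earlier results of these data known. Ldhb was singled out in it for its large rise in Hyper-organoids, so its levels there are described and not tested. The 32 members were counted in 10 single-cell RNA-seq libraries of mouse intestine (25204 cells). The value in each cell is a number of UMIs (unique molecular identifiers, 1 per captured RNA molecule).

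Intestinal crypts of the proximal small intestine of 6- to 12-week-old mice were grown in Matrigel as organoids, which are epithelial cultures that hold stem cells and their progeny. ENR-organoids (3 libraries, passages 2, 7 and 3) received R-Spondin 1, EGF and Noggin. Hyper-organoids (3 libraries, passages 1, 6 and 3) received EGF, FGF2, R-Spondin 1 conditioned medium, VPA (500 µM, a histone deacetylase inhibitor), EPZ6438 (2 µM, an EZH2 inhibitor), Pexmetinib, LDN193189 and GSK-3 Inhibitor XV. The -VE-organoids (2 libraries, passages 1 and 6) received that medium with VPA and EPZ6438 left out. The sample names of replicates 1, 2 and 3 begin with the prefixes 2, 6 and C, and the labels do not say what a prefix stands for. Hyper-organoids 1 and 2 and both -VE-organoids were derived from ENR-organoids, and ENR-organoids 3 and Hyper-organoids 3 came from primary crypts. The labels do not say which mice gave which culture, so the tests measure the spread between libraries. Colonic crypts were taken from normal mice (1 library) and from mice given 2.5% dextran sulfate sodium (DSS, which injures the colon) for 5 days (1 library), a model the study made in 8-week-old female mice.

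Each organoid library held 1983 to 4293 cells and 89124015 to 170019527 UMIs, with a median of 38174 to 50652 UMIs per cell, and the colonic libraries held 19906845 UMIs (normal) and 32397122 UMIs (DSS). Any pair of libraries shared 0 to 5 cell barcodes. The 3 epithelial markers Epcam, Krt8 and Cdh1 summed to 2609 to 3284 CPM (UMIs of a gene per 1000000 UMIs of the library) in the organoids, where 7 immune markers summed to 0.471 to 0.809 CPM. Immune markers were far higher in the colon, at 113 CPM in the normal and 2462 in the DSS library. Enterocytes and their progenitors made up 31.98% to 46.9% of ENR-, 9.97% to 10.6% of -VE- and 0.356% to 1.73% of Hyper-organoid cells, and stem and transit-amplifying cells 42.7% to 58.3%, 77.3% to 77.4% and 86.5% to 90.0%. In a sum over all cells of a library, fewer cells of a type and less RNA per cell cannot be told apart.

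Glycolysis splits glucose into pyruvate and yields ATP without oxygen. Glucose enters by facilitative transporters and is trapped by hexokinase. Phosphofructokinase commits the sugar, aldolase splits it, and the lower enzymes end with pyruvate kinase. Lactate dehydrogenase is a tetramer of A subunits (Ldha) and B subunits (Ldhb). The A form is known for turning pyruvate into lactate, and the B form for the opposite direction in tissues that burn lactate. Pyruvate dehydrogenase kinases inhibit the mitochondrial complex that turns pyruvate into acetyl-CoA, while fructose bisphosphatase and phosphoenolpyruvate carboxykinase work in gluconeogenesis. In the intestine, dividing crypt cells are known for glycolysis, and mature enterocytes carry genes of fructose metabolism and gluconeogenesis.

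The 2 lactate dehydrogenase genes lie apart in the genome (mm10), Ldhb on the minus strand at chr6:142490249-142507957 and Ldha on the plus strand at chr7:46841475-46855627. Their promoters are shown because the results turn on how differently the pair is used. Each run is the 250 bases that precede a RefSeq transcription start (GRCm38.p6, the assembly behind mm10), read on the gene's strand. Capitals mark ACGTG, the core of the hypoxia response element, on either strand.
Ldha promoter, chr7:46845554-46845803, plus strand: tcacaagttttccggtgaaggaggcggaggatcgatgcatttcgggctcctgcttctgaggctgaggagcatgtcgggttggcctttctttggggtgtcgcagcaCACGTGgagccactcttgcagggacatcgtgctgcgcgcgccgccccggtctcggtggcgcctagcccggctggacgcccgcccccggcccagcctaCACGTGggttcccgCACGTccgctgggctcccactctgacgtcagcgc
Ldhb promoter, chr6:142507958-142508207, minus strand: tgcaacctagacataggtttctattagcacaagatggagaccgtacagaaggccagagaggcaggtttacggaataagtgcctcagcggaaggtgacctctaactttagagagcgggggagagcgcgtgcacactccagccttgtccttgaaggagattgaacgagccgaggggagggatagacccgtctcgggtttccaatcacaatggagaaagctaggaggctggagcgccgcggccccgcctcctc
The Ldha window held 5 matches to ACGTG, counted over both strands. They come from 2 copies of CACGTG, a palindrome that matches once on each strand, and from 1 further match. The Ldhb window held 0, and so did the window of a second Ldha start (chr7:46846832-46847081). Of all 32851 mouse promoter windows of this length 16.6% held the letters, 6.02% held CACGTG, and the median window held 6 CpG dinucleotides against 25 in the Ldha and 14 in the Ldhb window. At least 1 window of 15 of the 32 members held ACGTG, and of all genes 18.5% did. A match describes these letters only.

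Ldhb was nearly silent in ENR- and -VE-organoids and plain in all Hyper-organoids, while Ldha stood at 1693 CPM or more in every organoid library. Levels of whole libraries are in CPM with the library total adjusted by edgeR's TMM factors. Ldhb stood at 0.145, 0.167 and 0.0836 in ENR-organoids 1, 2 and 3. It stood at 0.513 and 0.177 in -VE-organoids and at 64.1, 56.2 and 66.2 in Hyper-organoids. All 3 Hyper-organoid libraries lay far above the other 5, with 6279 to 9447 Ldhb UMIs against 7 to 60. The fitted log2 difference was 8.82 (SE 0.33) from ENR- and 7.57 (SE 0.35) from -VE-organoids, given with no test. Between -VE- and ENR-organoids, which the choice of the gene did not use, Ldhb differed by 1.25 on the log2 scale (SE 0.48) and did not pass (edgeR adjusted p = 0.157). That difference was 1.90 and passed without -VE-organoids replicate 2, and in stem cells alone it turned to -0.38. A fit without 1 of the 2 -VE-organoid libraries assumes that the lone library varies like the other groups.

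Ldha stood at 1834, 2029 and 1772 CPM in ENR-organoids, at 2216 and 2256 CPM in -VE-organoids and at 1782, 1940 and 1693 in Hyper-organoids. The ENR and Hyper values overlapped, and both -VE values were above all the others. Hyper-organoids did not differ from ENR-organoids past the test (log2 -0.06, SE 0.07, edgeR adjusted p = 0.509), and the sign turned with the processing, to 0.04 with upper-quartile factors and to 0.28 with the classes weighted equally, where Ldha passed as higher (edgeR adjusted p = 0.0332). Ldha fell from -VE- to Hyper-organoids by 0.31 (log2, SE 0.08, edgeR adjusted p = 0.0121). That pass was lost without either -VE-organoid library (adjusted p = 0.0547 and 0.0878), in stem cells, with equal class weights and with a 10 CPM filter. The difference of -VE- from ENR-organoids missed the threshold (0.25, edgeR adjusted p = 0.0908). It passed with the name prefix as a block (0.21, adjusted p = 0.0369), by DESeq2 (adjusted p = 0.0216), in stem cells (0.44) and with equal class weights (0.51).

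**Figure D1:**
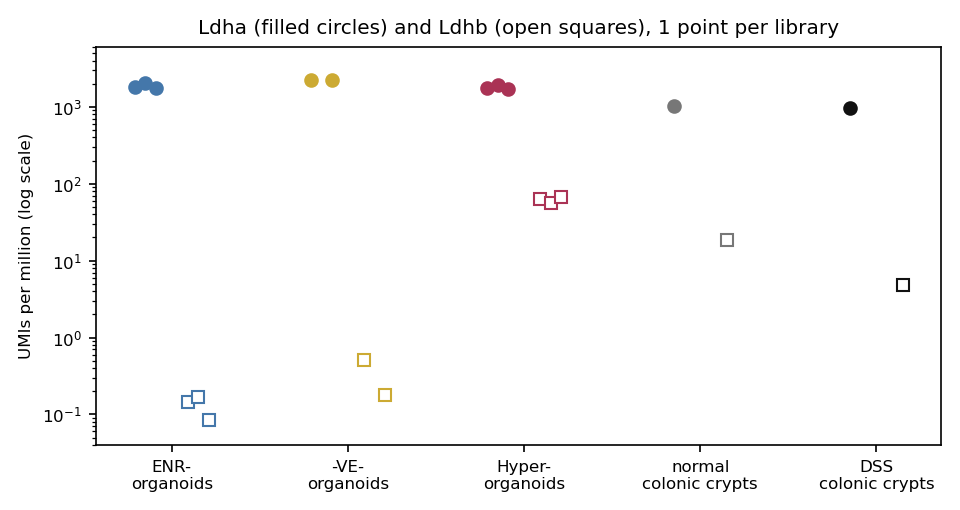
Level of Ldha (filled circles) and Ldhb (open squares) in every library, in CPM on a log axis, TMM-adjusted for the 8 organoid libraries and plain for the 2 colonic libraries. Ldha sits between 955 and 2256 everywhere, whereas Ldhb sits between 0.0836 and 0.513 in ENR- and -VE-organoids, between 56.2 and 66.2 in Hyper-organoids, and at 18.5 and 4.78 in normal and DSS colonic crypts.

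Even so, Ldha remained by far the larger of the pair. Because the 3′ method counts a molecule once whatever its length, UMIs of both genes can be put in a share, though capture may differ between genes. Ldhb made up 0.00790%, 0.00823% and 0.00472% of their joint UMIs in ENR-organoids and 0.0232% and 0.00782% in -VE-organoids. In Hyper-organoids it made up 3.47%, 2.81% and 3.76%, a mean of 3.35% ± 0.487 (SD, n = 3). The -VE share exceeded the ENR share by 0.00855 percentage points with overlapping values (two-sided exact permutation p = 0.3, adjusted 0.345 over 46 share comparisons).

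A Ldhb UMI was found in most Hyper-organoid cells, at shares of 82.6%, 74.9% and 80.9%, against 0.640%, 0.538% and 0.298% of ENR- and 2.22% and 0.652% of -VE-organoid cells. After each cell was thinned to 10000 UMIs, leaving out the 63 to 280 shallower cells of a library, the Hyper-organoid shares were 45.0%, 40.1% and 45.6%. At that depth the ENR-organoids gave 0.138%, 0.201% and 0.0825%, and the -VE-organoids 0.479% and 0.169%. Ldha had a UMI in 99.70% to 99.89% of Hyper-organoid cells. No cell type known to lack Ldhb was at hand, so the part of free RNA in these shares was not tested.

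Within Hyper-organoids Ldhb was highest in stem, transit-amplifying and revival stem cells. The study annotated each cell as stem (SC), transit-amplifying (TA), goblet (GC), enteroendocrine (EE), enterocyte (EC), enterocyte progenitor (EP), Paneth (PC), revival stem (RSC) or tuft (TC). For 7 of these classes, 24 markers were compared in the libraries with at least 20 cells of the class. All were higher in their class than in the other cells except Cd44, which was higher in stem cells in 5 of 8 libraries. The study lists these markers among those used to annotate the classes, so this is not an independent check of the labels. Revival stem and tuft cells were not checked in this way. Class levels below are CPM of the class with no further adjustment. In Hyper-organoids 1, 2 and 3 Ldhb stood at 72.9, 60.9 and 75.9 in stem cells and at 71.0, 65.3 and 73.7 in transit-amplifying cells. It stood at 20.0, 12.3 and 17.7 in goblet cells and at 24.1, 14.8 and 8.46 in enteroendocrine cells. The 2 libraries with 20 enterocytes gave 15.2 and 18.5, and the 26 revival stem cells of Hyper-organoids 3 gave 68.2.

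Thus Ldhb in goblet cells was 0.201 to 0.274 of the stem cell level of the same library, in enteroendocrine cells 0.111 to 0.331 and in enterocytes 0.244 to 0.249, lower in every library measured, while transit-amplifying cells were at 0.971 to 1.07. With 3 paired libraries an exact test cannot go below p = 0.25. As a share of both genes' UMIs, Ldhb reached 3.47%, 2.69% and 3.75% in stem cells of Hyper-organoids, and 1.14%, 0.717% and 1.18% in goblet cells. At equal depth stem cells were again above both: thinned cells held Ldhb in 42.0% to 50.6% of stem, 8.50% to 18.3% of goblet and 7.51% to 13.3% of enteroendocrine cells.

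In ENR-organoids Ldhb had 0 UMIs in enteroendocrine cells and 0 in enterocytes of all 3 libraries together. A count of 0 allows up to 0.814 CPM in the enteroendocrine cells (3 UMIs in 3683620 over the group) and 0.0998 CPM in the enterocytes (3 UMIs in 30067624). Against those limits the Hyper-organoid means of Ldhb in the same classes, 15.8 and 16.8 CPM, were at least 19.4-fold and at least 169-fold higher. Those means are of 3 libraries for enteroendocrine cells and 2 for enterocytes, with lowest values of 8.46 and 15.2 CPM. Like the intervals, these limits cover counting error only, and the part of free RNA was not tested. In stem, transit-amplifying, goblet, enteroendocrine and enterocyte cells, every Hyper-organoid library with 20 such cells stood above all ENR- and -VE-organoid libraries, where Ldhb reached at most 1.57 CPM, in goblet cells.

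**Figure D2:**
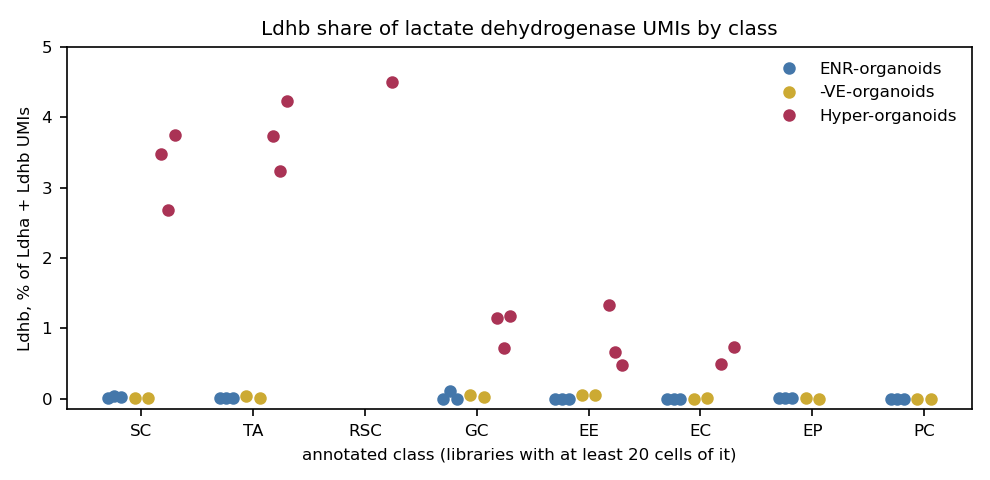
Ldhb as a percentage of Ldha and Ldhb UMIs (linear axis) in each annotated class, 1 point per library with at least 20 cells of the class, coloured by medium. Hyper-organoid stem cells lie at 2.69% to 3.75% and goblet cells at 0.717% to 1.18%, while ENR- and -VE-organoid points lie at or near 0 in every class plotted.

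Across the whole list, Hyper-organoids differed from ENR-organoids in most members, mostly upward and mostly by less than 2-fold. Of the 31 members with enough counts to test (Pgam2, the muscle mutase, had 3 UMIs in all organoid libraries together), 19 rose and 6 fell past edgeR's test at an adjusted p under 0.05, while 29.5% of 16037 genes passed higher and 27.3% lower. With at least a 2-fold change as well, 9 were called, beside 22.9% of all genes: Slc16a3, Hk1, Eno2 and Ldhb higher (18.2% of genes) and Pfkfb4, Eno3, Pklr, Pdk2 and Pck1 lower (4.75%). The median log2 difference was 0.32 over the members and -0.01 over all genes. Ldhb is in these counts by the way it was chosen.

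Between -VE- and Hyper-organoids, whose media differ by VPA and EPZ6438, 8 members rose and 6 fell (25.0% and 22.6% of genes). The 3 called were Hk1, Eno2 and Ldhb, all higher (18.6% of genes were called, 16.1% higher), and the median was 0.13 against 0.01. From ENR- to -VE-organoids, 10 members rose and 4 fell where 4.26% and 3.62% of all genes did, and 2 were called where 2.55% of genes were, Pklr and Pck1, both lower (1.20% of genes). The median log2 difference of the members was 0.26 against 0.00 over all genes. The 10 and 4 became 5 and 2 without ENR-organoids replicate 1 or 2, and 6 and 3 without replicate 3. With equal class weights they were 6 and 0. Genes passing numbered 1264 of 16037 in the main fit. In those 4 settings they numbered 549 of 15978, 334 of 16002, 623 of 15986 and 176 of 17049. These 3 comparisons share their libraries, so their counts are given side by side and not compared by a test. Summed levels in libraries also move with class shares, and the part of those shares in the counts was not tested. In stem cells alone, 8 members were called between Hyper- and ENR-organoids beside 18.0% of genes. Of these, 7 were higher and 1 lower (2119 and 390 of 13920 genes), where the sums gave 4 and 5. The 2 calls of the -VE against ENR comparison were lost in stem cells.

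**Figure D3:**
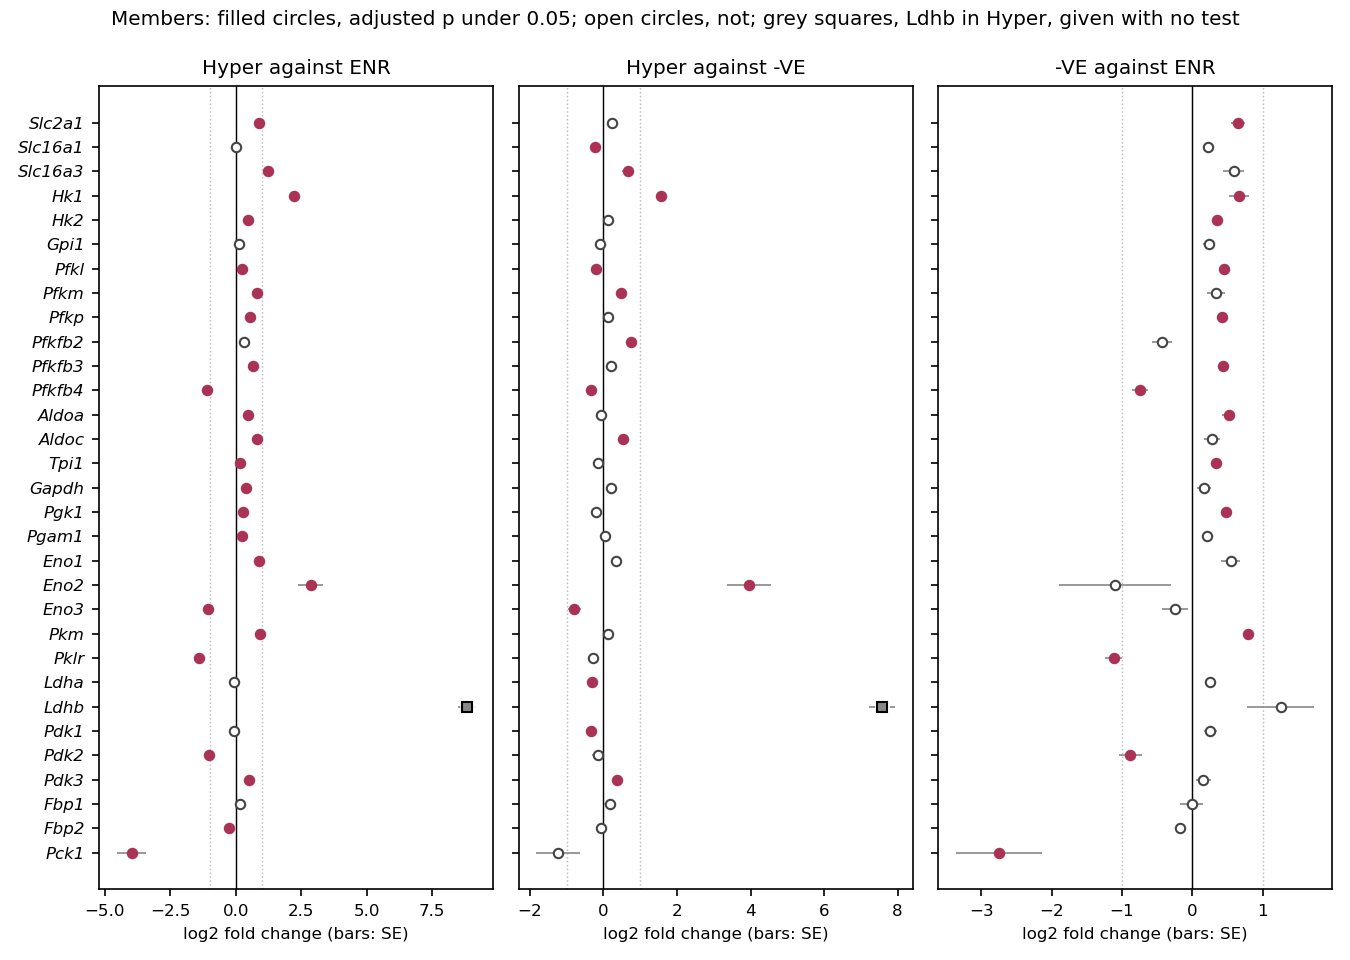
Log2 fold changes of the 31 tested members in the 3 comparisons of organoid media, with bars of 1 SE, in the order of the pathway; dotted lines mark 2-fold, and the horizontal scales differ. Filled circles passed edgeR's adjusted p of 0.05, and grey squares mark Ldhb where it is given with no test; Hk1 at 2.23 and 1.57 stands above the other hexokinase gene in both Hyper comparisons.

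At entry and exit, 2 of the 3 transporters rose in Hyper-organoids. Slc16a3 (chr11:120948480-120960868), the lactate exporter MCT4, stood at 57.2, 61.2 and 51.6 CPM in ENR-organoids, at 93.1 and 77.5 CPM in -VE-organoids and at 161, 131 and 112 CPM in Hyper-organoids. The 3 media did not overlap, in the order ENR, -VE, Hyper. Slc16a3 rose by 1.25 from ENR- (SE 0.14, edgeR adjusted p = 0.000135) and by 0.66 from -VE- to Hyper-organoids (SE 0.15, adjusted p = 0.00891) on the log2 scale, the latter lost without -VE-organoids replicate 2 (0.55, adjusted p = 0.0742). The step from ENR- to -VE-organoids, 0.59, missed the threshold (adjusted p = 0.0521) and passed in the fit blocked by name prefix (0.49, edgeR adjusted p = 0.0340), by DESeq2 (adjusted p = 0.00158) and in stem cells (0.82).

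Slc2a1, the glucose transporter GLUT1, rose by 0.88 from ENR- to Hyper-organoids and by 0.65 to -VE-organoids (edgeR adjusted p = 6.69e-05 and 0.00848). Its level was 33.8 to 39.0 CPM in ENR-organoids, 56.3 to 57.6 in -VE- and 59.4 to 73.3 in Hyper-organoids. Slc16a1, the lactate and ketone transporter MCT1, did not pass against ENR-organoids (log2 difference 0.00) and fell by 0.22 from -VE- to Hyper-organoids.

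The hexokinases, which phosphorylate glucose, both rose, and Hk1 rose far more than Hk2. Hk1 (chr10:62268855-62379908, minus strand), the widely expressed form, stood at 5.18, 4.17 and 5.03 CPM in ENR-organoids, at 8.62 and 6.56 in -VE- and at 20.5, 23.9 and 22.9 in Hyper-organoids. No Hyper-organoid value of Hk1 came near those of the other media. The log2 difference was 2.23 from ENR- (SE 0.13, edgeR adjusted p = 6.26e-06) and 1.57 from -VE-organoids (SE 0.15, adjusted p = 0.000142), and Hk1 rose by 0.66 from ENR- to -VE-organoids (adjusted p = 0.0301). The last pass was lost without any 1 of the ENR- or -VE-organoid libraries, in stem cells (0.53, adjusted p = 0.170) and over all deposited barcodes, and with equal class weights the direction turned (-0.04).

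Hk2, the inducible form associated with proliferating cells, stood at 37.0, 33.2 and 36.0 CPM in ENR-organoids, at 48.0 and 42.6 in -VE- and at 52.6, 49.1 and 46.7 in Hyper-organoids. ENR-organoids were lowest and the other media overlapped. Hk2 rose by 0.48 from ENR- to Hyper-organoids (SE 0.07, edgeR adjusted p = 0.000642). With the classes weighted equally the difference turned to -0.15. Of the UMIs of both genes, Hk1 held 11.9% ± 0.633 (SD, n = 3) in ENR-, 14.3% ± 1.33 (n = 2) in -VE- and 31.2% ± 2.74 (n = 3) in Hyper-organoids. These shares did not overlap between any 2 media, with the smallest two-sided exact permutation p the design allows, 0.1 (adjusted 0.128 over 46 comparisons).

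In the middle of the pathway the changes were smaller and mostly upward. Gpi1, the isomerase after hexokinase, did not pass in any of the 3 comparisons (log2 differences -0.10 to 0.23). All 3 phosphofructokinases rose from ENR- to Hyper-organoids: the liver form Pfkl by 0.24, the muscle form Pfkm by 0.82 and the platelet form Pfkp by 0.56. Between -VE- and Hyper-organoids Pfkm rose by 0.48 and Pfkl fell by 0.21. The liver form thus went from 61.1% of phosphofructokinase UMIs in ENR- and 61.6% in -VE- to 55.6% in Hyper-organoids, and Pfkp from 36.2% and 35.9% to 40.8%, with no overlap between Hyper-organoids and either medium (exact permutation p = 0.1, adjusted 0.128).

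The bifunctional PFKFB enzymes, which set the level of fructose 2,6-bisphosphate and so the pace of phosphofructokinase, changed in their shares. Pfkfb4 stood at 10.0, 10.6 and 9.60 CPM in ENR-organoids, 6.22 and 5.79 in -VE- and 5.03, 5.02 and 4.19 in Hyper-organoids, with no overlap between media. It fell by 1.08 from ENR- to Hyper- (SE 0.10, edgeR adjusted p = 4.88e-05) and by 0.74 to -VE-organoids (adjusted p = 0.00927, but 0.0849 without -VE-organoids replicate 2). With equal class weights neither fall passed (-0.40 and -0.34, edgeR adjusted p = 0.0989 and 0.391). Pfkfb3, the form with the strongest kinase activity, rose by 0.65 and 0.44 in the same comparisons, and its share of the 3 genes' UMIs went from 33.1% in ENR- to 52.0% in -VE- and 56.6% in Hyper-organoids. In stem cells alone the Pfkfb4 difference of Hyper- from ENR-organoids was -0.12 and did not pass (edgeR adjusted p = 0.55), nor did that of -VE- from ENR-organoids (-0.09, adjusted p = 0.845), and in enterocytes Pfkfb4 fell by 1.04 to Hyper-organoids. The stem cell shares of Pfkfb3 were 44.3% in ENR-organoids and 56.6% in Hyper-organoids, and those of Pfkfb4 42.3% and 29.1%. Pfkfb2 rose by 0.75 from -VE- to Hyper-organoids.

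Both listed aldolase genes, whose products split the sugar, also rose from ENR- to Hyper-organoids: Aldoa by 0.46 and the less abundant Aldoc by 0.80. The list does not hold every aldolase gene, so this is not a rise of aldolase as a whole. Tpi1, Gapdh, Pgk1 and Pgam1, single enzymes of the lower pathway, rose by 0.18, 0.37, 0.28 and 0.24. Gapdh, the dehydrogenase often used as a reference gene, stood at 2042, 2313 and 2603 CPM in ENR-organoids, at 2722 and 2499 in -VE- and at 2886, 2958 and 3172 in Hyper-organoids. The Hyper values of Gapdh were above all others, and the rise from ENR-organoids passed (SE 0.09, edgeR adjusted p = 0.00741). From ENR- to -VE-organoids Aldoa rose by 0.52, Tpi1 by 0.33 and Pgk1 by 0.48. Near-copies of Aldoa, Gapdh, Pgk1 and Eno1 exist in the mouse genome, so how shared reads were split is uncertain for these genes.

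Enolase changed in its minor forms most. Eno1, the general form, made up 98.6% to 99.7% of the enolase UMIs of Eno1 and Eno3 and rose by 0.90 from ENR- to Hyper-organoids (SE 0.13, edgeR adjusted p = 0.000485), and the step to -VE-organoids, 0.54, missed the threshold (adjusted p = 0.0515). Eno3, the muscle form, stood at 5.79, 7.21 and 4.63 CPM in ENR-organoids, 5.21 and 4.71 in -VE- and 2.85, 3.03 and 2.67 in Hyper-organoids. The Hyper values of Eno3 were the lowest, and the fall was 1.04 from ENR- (edgeR adjusted p = 0.000837) and 0.80 from -VE-organoids (adjusted p = 0.00716, but 0.114 with equal class weights) in log2 units.

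Eno2, the neuronal form, was called higher in Hyper-organoids but rests on few molecules. It had 1, 3 and 1 UMIs in ENR-, 1 and 1 in -VE- and 18, 24 and 9 in Hyper-organoids. Summed over libraries, Hyper-organoids held 8.50 times as much per UMI as ENR-organoids, with an exact counting interval of 3.42 to 27.3, and 20.1 times as much as -VE-organoids (5.28 to 170). The fitted log2 differences were 2.87 (SE 0.48, edgeR adjusted p = 0.00122) and 3.97 (SE 0.60, adjusted p = 0.00119). With the classes weighted equally they were 0.49 and 3.77 and did not pass (edgeR adjusted p = 0.758 and 0.0911).

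At pyruvate kinase, the last step, the 2 genes moved apart. Pkm (chr9:59656368-59679375), whose products serve most tissues, stood at 812, 906 and 818 CPM in ENR-organoids, at 1431 and 1496 in -VE- and at 1653, 1658 and 1521 in Hyper-organoids. ENR-organoids were lowest, and the 3 media did not overlap. Pkm rose by 0.93 from ENR- to Hyper- (SE 0.06, edgeR adjusted p = 1.12e-05) and by 0.79 to -VE-organoids (SE 0.07, adjusted p = 0.00193). The 0.14 between -VE- and Hyper-organoids missed the threshold (adjusted p = 0.131) but passed in the blocked fit (0.17, edgeR adjusted p = 0.0277). These counts do not separate the splice forms of Pkm.

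Pklr (chr3:89136142-89146784), the form of liver and red cells that enterocytes also carry, stood at 38.8, 49.0 and 38.7 CPM in ENR-organoids, at 20.97 and 18.0 in -VE- and at 15.5, 16.6 and 15.5 in Hyper-organoids. Again the media did not overlap, here with ENR-organoids highest. Pklr fell by 1.41 from ENR- to Hyper- (SE 0.11, edgeR adjusted p = 1.97e-05) and by 1.12 to -VE-organoids (SE 0.12, adjusted p = 0.0031), where it missed the threshold with equal class weights (-0.41, adjusted p = 0.143). Its share of pyruvate kinase UMIs was 4.74% ± 0.342 (SD, n = 3), 1.32% ± 0.182 (n = 2) and 0.977% ± 0.0421 (n = 3) in the 3 media. The enterocyte markers Fabp1, Apoa1 and Rbp2 moved the same way, summing to 1534 to 2159 CPM in ENR-, 650 to 677 in -VE- and 130 to 511 in Hyper-organoids. Within stem cells Pklr fell by 0.55, and within enterocytes by 1.34, from ENR- to Hyper-organoids (edgeR adjusted p = 0.00215 and 0.00427). The part of the enterocyte share and of free RNA in these values was not tested.

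**Figure D4:**
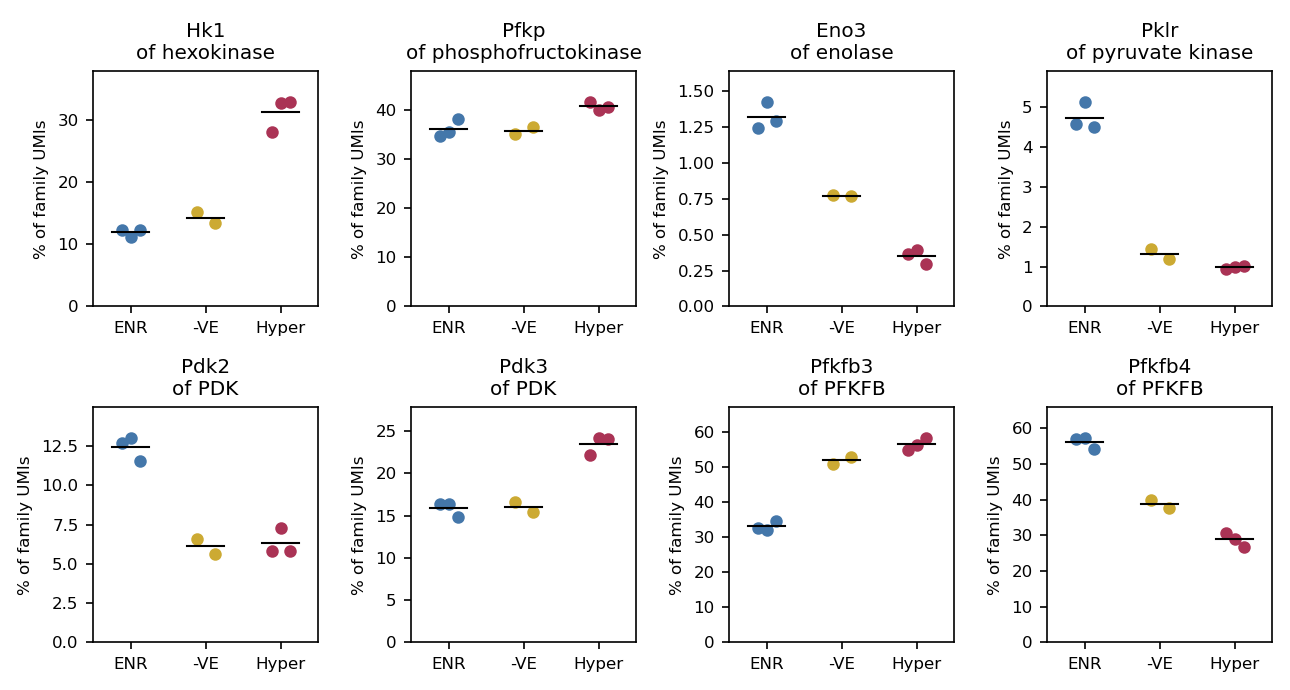
Share of 8 members in the UMIs of their enzyme family, in percent on linear axes from 0, 1 point per organoid library with the group mean as a line; PDK stands for pyruvate dehydrogenase kinase. Hk1 goes from 11.9% in ENR- to 31.2% in Hyper-organoids, while Pklr is at 4.74% in ENR- and at 1.32% and 0.977% in -VE- and Hyper-organoids.

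Past pyruvate, the pyruvate dehydrogenase kinases, which inhibit the step from pyruvate to acetyl-CoA, went in different directions. Pdk2 stood at 16.4, 16.9 and 14.4 CPM in ENR-organoids, 9.94 and 7.36 in -VE- and 7.92, 8.96 and 6.61 in Hyper-organoids. ENR-organoids were highest and the other media overlapped. Pdk2 fell by 1.02 from ENR- to Hyper- (SE 0.15, edgeR adjusted p = 0.000531) and by 0.88 to -VE-organoids (adjusted p = 0.0201). The second pass was lost without ENR-organoids replicate 1 or 2 or -VE-organoids replicate 2 (adjusted p = 0.0641, 0.0772 and 0.142), with equal class weights (-0.70), and in stem cells, where the difference was -1.01 (adjusted p = 0.0590). Pdk3 rose by 0.52 from ENR- and by 0.36 from -VE- to Hyper-organoids, and its share of the 3 genes' UMIs was 15.9%, 16.1% and 23.5% in ENR-, -VE- and Hyper-organoids. Pdk1, the form known as a hypoxia target, held a mean of 70.2% to 77.8% of the UMIs in the 3 media and fell by 0.33 from -VE- to Hyper-organoids.

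Of the gluconeogenesis genes, Pck1 fell the most of all members and Fbp1 did not pass the test in the sums. Pck1, the carboxykinase, stood at 2.57, 4.75 and 2.15 CPM in ENR-organoids, at 0.625 and 0.323 in -VE- and at 0.115, 0.365 and 0.106 in Hyper-organoids. ENR-organoids were highest, and the other media overlapped. The fall was 3.97 to Hyper- (SE 0.56, edgeR adjusted p = 0.000502) and 2.75 to -VE-organoids (SE 0.61, adjusted p = 0.0337) on the log2 scale. The Pck1 call of the second comparison was lost without any 1 of the 5 libraries compared, and in stem cells alone. Fbp2 fell by 0.26 from ENR- to Hyper-organoids, and Fbp1 differed by 0.17 (edgeR adjusted p = 0.341). As for Pklr, the enterocyte share and markers moved with Pck1, and their part was not tested beyond these values.

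Among relatives outside the list, Hkdc1, a further hexokinase, made up 26.9% of the UMIs of Hk1, Hk2 and Hkdc1 in ENR-organoids, 17.0% in -VE-organoids and 9.48% in Hyper-organoids. From ENR- to Hyper-organoids Slc16a7, a monocarboxylate transporter, and Pdk4, another pyruvate dehydrogenase kinase, rose by 2.18 and 1.86. G6pc, the glucose 6-phosphatase that ends gluconeogenesis, and the sugar transporters Slc2a2 and Slc2a5 fell by 4.82, 3.18 and 2.25.

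Among neighbouring pathways, of the 16 genes of the hypoxia response list 9 passed the test from ENR- to Hyper-organoids, all higher, with a median of 0.30, where 29.5% of all genes passed higher and 27.3% lower. The 5 called higher were Adm (2.58), Bnip3 (1.45), P4ha2 (1.28), P4ha1 (1.20) and Egln3 (1.13), beside 18.2% of genes. From ENR- to -VE-organoids 6 passed, all higher, with a median of 0.40 (4.26% of genes passed higher). From -VE- to Hyper-organoids 2 rose and Ero1l fell, while 25.0% of genes rose and 22.6% fell. The pentose phosphate genes, which draw glucose 6-phosphate off to make NADPH and ribose, fell or did not pass: from ENR- to Hyper-organoids 4 of 7 fell (Rpia by 0.85, Pgd by 0.56, Tkt by 0.51 and Pgls by 0.28), with a median of -0.28, and from -VE- to Hyper-organoids 5 fell, with a median of -0.47. Of 10 genes that bring pyruvate into the mitochondrion and its cycle, 7 fell and 2 rose from ENR- to Hyper-organoids, with a median of -0.27, the largest being Mpc2, the pyruvate carrier, at -0.56 and Pdhb at -0.54 against the phosphatase Pdp1 at 0.86. From -VE- to Hyper-organoids 6 of them fell and 2 rose, with a median of -0.27. These lists were chosen with results of these data known, and the median of all genes was -0.01 from ENR- and 0.01 from -VE- to Hyper-organoids.

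Class by class, the members of the list were set at different levels before any change of medium. Among classes of at least 20 cells Hk2 was highest in enteroendocrine cells, at 398, 334 and 269 CPM in ENR-organoids, which was 7.93 to 11.2 times the stem cell level of the same library, and lowest in enterocytes at 13.5 to 14.1. Hk1 showed the same high place, with 25.3 to 34.2 CPM in enteroendocrine cells of ENR-organoids against 3.81 to 5.11 in stem cells. Ldha and Pklr were highest in enterocytes of ENR-organoids, where Ldha was 1.49 to 1.69 times its stem cell level and Pklr stood at 149 to 211 CPM against 18.2 to 24.6. Fbp1 stood at 108, 104 and 80.6 CPM in enterocytes there, against 4.08 to 12.7 in goblet and enteroendocrine cells. It was not confined to enterocytes, and its level in stem and transit-amplifying cells is given further below.

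The fits within classes used each library with 20 cells of the class, which left 2 Hyper-organoid libraries for enterocytes. Between Hyper- and ENR-organoids, 8 members were called in stem cells beside 18.0% of genes, 4 in transit-amplifying cells beside 20.9%, 7 in goblet cells beside 13.3%, 6 in enteroendocrine cells beside 7.40% and 8 in enterocytes beside 10.9%. Without Hyper-organoids replicate 2 the enteroendocrine count was 3 and the enterocyte count 5, the latter with a lone Hyper-organoid library assumed to vary like the other groups. Slc16a3 was among those called in all 5 classes, as was Ldhb, for which this is no test, and Hk1 was among them in 4. Hk1 rose by 2.40 in stem, 2.41 in transit-amplifying, 2.92 in enterocyte and 1.44 in goblet cells, and in enteroendocrine cells by 0.88, short of 2-fold (edgeR adjusted p = 0.0276). In stem cells the calls also took in Pfkp (1.27), Aldoc (1.08), Eno1 (1.06) and Pkm (1.04). The study reports that stem and transit-amplifying cells separated clearly between these media, though stem markers were shared. Over whole libraries the stem markers Lgr5, Ascl2, Olfm4 and Cd44 summed to 1090 to 1898 CPM in ENR- and 263 to 894 in Hyper-organoids.

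Between Hyper- and -VE-organoids, Hk1 was called higher in all 5 classes, by 1.88 in stem, 1.65 in transit-amplifying, 1.40 in goblet, 1.22 in enteroendocrine and 1.86 in enterocyte cells. There were 2 members called in stem cells (16.5% of genes), 2 in transit-amplifying (17.8%), 2 in goblet (9.87%), 3 in enteroendocrine (4.01%) and 3 in enterocyte cells (6.87%). Besides Hk1 and Ldhb these were Fbp1 in enteroendocrine cells and Pfkm in enterocytes. The enteroendocrine count was 1 without -VE-organoids replicate 1 and 0 without replicate 2. Between -VE- and ENR-organoids, 5 members were called in enterocytes (3.34% of genes): Hk2 (1.18) and Hk1 (1.06) higher, and Pklr (-1.56), Fbp1 (-2.03) and Pck1 (-2.59) lower (1.44% and 1.90% of genes). The count was 2 without -VE-organoids replicate 2.

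In the other classes tested between -VE- and ENR-organoids no member reached both limits, beside 0.503% of genes in stem, 1.03% in transit-amplifying, 1.14% in goblet, 0.190% in enteroendocrine, 1.07% in Paneth and 0.453% in enterocyte progenitor cells. In Paneth cells the count was 3 without ENR-organoids replicate 3 and 1 without -VE-organoids replicate 2, and it reached 1 in stem and in transit-amplifying cells when a library was left out. At an unadjusted p under 0.05 edgeR gave 12 to 23 of the 21 to 30 members tested in these classes, and 11.1% to 19.2% of all genes. By the adjusted p alone 4 of 30 members passed in goblet cells (261 of 11714 genes) and 4 of 21 in Paneth cells (77 of 5995). In enterocyte progenitors 2 of 29 passed (146 of 12138 genes), and in enteroendocrine cells 0 of 28 (22 of 11050). In stem cells 11 of 30 members passed, where 1.54% of genes did, and in transit-amplifying cells 10, where 3.14% did. In stem cells these were 10 that rose, the glucose transporter Slc2a1 (0.62), Slc16a3 (0.82), Pfkl, Pfkp (0.85), Aldoa (0.66), Tpi1, Pgk1 (0.60), Pgam1, Pkm (0.83) and Ldha (0.44), and Pklr, which fell by 0.62.

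**Figure D5:**
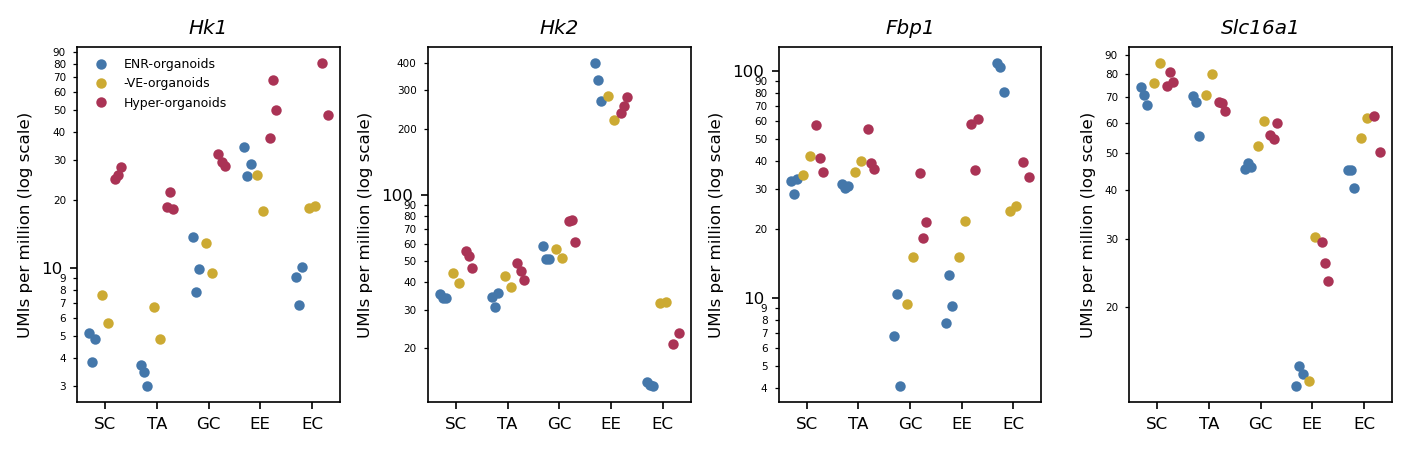
Levels of Hk1, Hk2, Fbp1 and Slc16a1 in 5 annotated classes, in CPM of the class on log axes, 1 point per library with at least 20 cells of the class, coloured by medium (SC stem, TA transit-amplifying, GC goblet, EE enteroendocrine, EC enterocyte). Fbp1 in enteroendocrine cells goes from 7.77 to 12.7 in ENR- to 36.6 to 61.3 in Hyper-organoids, while in enterocytes it goes from 80.6 to 108 down to 33.9 to 39.8.

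Fbp1, fructose bisphosphatase, went opposite ways in different classes. In enteroendocrine cells it stood at 7.77, 12.7 and 9.24 CPM in ENR-organoids, at 15.2 and 21.8 in -VE- and at 58.4, 36.6 and 61.3 in Hyper-organoids, without overlap between media, and rose by 2.46 from ENR- to Hyper-organoids (SE 0.29, edgeR adjusted p = 0.000341). It rose by 1.67 in goblet cells and fell by 1.42 in enterocytes (adjusted p = 0.00214 and 0.000287). The difference of the change from that in stem cells was tested for the 3 other classes with 20 cells in every library, over 13326 genes with the library as a block. In enteroendocrine cells Slc16a1, Hk1 and Fbp1 were called (8.55% of genes were), in goblet cells Hk1 and Fbp1 (3.71%), and in transit-amplifying cells, where 0.578% of genes were called, Pfkp passed at -0.51, under 2-fold. Also under 2-fold, Hk2 (-0.83, edgeR adjusted p = 4.6e-05), Pkm (-0.43), Fbp2 (0.51) and Ldha (0.37) passed in enteroendocrine cells, and Slc16a3 (-0.66), Aldoc (-0.55) and Aldoa (-0.31) in goblet cells. Fbp1 UMIs in the enteroendocrine cells of an ENR-organoid library numbered 9 to 18. Stem and transit-amplifying cells, which hold Fbp1 at 28.6 to 57.5 CPM, were a larger part of Hyper-organoids, and free RNA was not tested.

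The normal colon held more Ldhb than ENR- or -VE-organoids, and the DSS colon held less than the normal colon. With 1 library each there is no test, and levels are plain CPM with exact 95% Poisson intervals for counting error only. Ldhb stood at 18.5 (16.7 to 20.5) in normal and 4.78 (4.06 to 5.60) in DSS crypts, a ratio of 0.258 (0.213 to 0.312). In cells without a UMI of the leukocyte gene Ptprc the ratio was 0.230. Ldha stood at 1011 and 955 CPM, so Ldhb made up 1.80% of both genes' UMIs in the normal and 0.499% in the DSS library. Of 7 of the study's clusters with at least 20 cells in both libraries Ldhb was lower in the DSS library in 6, including the stem cluster, at 32.9 (26.1 to 40.9) against 19.0 (14.6 to 24.2). Cluster 1 stood at 28.0 against 5.62 CPM and cluster 13 at 23.9 against 4.58 CPM. The intervals overlapped in the clusters with 13 or fewer Ldhb UMIs in the normal library.

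Slc16a3 was the member that stood higher in the DSS library past 2-fold, at 15.2 against 2.06 CPM, a ratio of 7.36 (5.35 to 10.4). Of its DSS UMIs 37.3% lay in cluster 9, which had 108 cells in the DSS and 2 in the normal library, and where 1.85% of the DSS cells held a Ptprc UMI. A further 35.6% lay in cluster 15, with 66 cells in the DSS and 0 in the normal library, of which 68.2% held a Ptprc UMI. Without cluster 9 the ratio was 5.01 (3.61 to 7.12), without cluster 15 it was 4.77 (3.44 to 6.78) and without both 2.18 (1.53 to 3.18). Of the 41 Slc16a3 UMIs of the normal library 20 lay in cluster 12, with 93 normal cells and 1 DSS cell, and without clusters 9, 12 and 15 the ratio was 4.13 (2.59 to 6.89). These exclusions were chosen after the values were seen. It was 6.70 in cells without Ptprc and 2.25 over all deposited barcodes. Of the 30 members with at least 10 UMIs, 1 was past 2-fold higher and 1, Ldhb, lower, beside 9.46% and 3.64% of 14690 genes (13.1% in all). The counting interval of the ratio lay above 1 for 8 of the 32 members, below 1 for 13 and across 1 for 11, and the median ratio was 0.955 over members and 1.04 over genes.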

How the data were processed

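The members, the lists and the rule behind them were chosen with earlier results of these data known. RNA was captured by a droplet 3′ method. The authors aligned reads to mm10 with Cell Ranger (3.0.0 in the submitters' processing notes, 3.1.0 in the file headers) and deposited UMI counts per gene and barcode, not normalized, with a table of 25204 kept cells and their classes. The matrices hold 31053 genes, and for the 23810 genes of the table the library sums were the same in both. Kept cells do not follow the 1500-gene filter of the methods (551 organoid cells lie under it). Doublets were not called here.

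Counts were summed per library, or per library and class of at least 20 cells, and 1 fit over all 8 organoid libraries was made by edgeR (version 4.0.16, R 4.3.3, with TMM, filterByExpr, glmQLFit, glmQLFTest). P-values were adjusted by Benjamini-Hochberg over all genes tested, 16037 in the sums. Called means an adjusted p under 0.05 and at least 2-fold. Named were all members by role. Those called in a comparison of media, and Ldha, Ldhb, Gapdh, Pkm and Hk2, were given in every library. Isoform shares were compared by a two-sided exact permutation test over libraries, where 3 against 3 or 2 cannot go below 0.1. Intervals are exact Poisson or, for ratios, exact binomial (95%). The procedure was tested on simulated data.

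Same-numbered libraries share only a name prefix in the labels. Deviations from the group means of the ENR- and Hyper-organoid libraries of a prefix correlated at 0.192, 0.170 and 0.436 over 16037 genes, so a fit with the prefix as a block was run beside the main one. Alternatives were DESeq2 1.42.0, other scalings and filters, other cells, stem cells alone, equal class weights and leaving out each library. Columns of no known sample numbered 0. One relative of the listed genes is not reported here.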

Additional observations from a re-analysis of the deposited data

Results flagged for a closer look

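For 5 results the change from ENR- to Hyper-organoids differed between a class and stem cells. This is edgeR's test of the difference itself (library as a block, adjusted over 13326 genes). Of 30 members tested, 3 were called in enteroendocrine cells beside 8.55% of genes, and 2 in goblet cells beside 3.71%. The enteroendocrine count lies near the share of all genes. In enteroendocrine cells the change of Fbp1 exceeded that in stem cells by 1.99 on the log2 scale (1.988, SE 0.33, adjusted p = 0.000135), and that of Slc16a1 by 1.03 (1.027, SE 0.22, adjusted p = 0.00225). The change of Hk1 there differed by -1.57 (-1.574, SE 0.27, adjusted p = 0.000244). Hk1 stood at 25.3 to 34.2 CPM in enteroendocrine cells of ENR-organoids and reached 37.3 to 67.7 in Hyper-organoids, while stem cells went from 3.81 to 5.11 up to 24.6 to 27.9. In goblet cells the difference was 1.12 for Fbp1 (1.124, SE 0.25, adjusted p = 0.00411) and -1.06 for Hk1 (-1.057, SE 0.26, adjusted p = 0.00726).

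Leaving out any 1 library, a choice made after the data were seen, kept the sign of all 5. The Hk1 difference in goblet cells missed the adjusted p without ENR-organoids replicate 1, at -0.91, and fell under 2-fold without Hyper-organoids replicate 3, at -0.99. That of Fbp1 in goblet cells fell under 2-fold without ENR-organoids replicate 3, at 0.92, and that of Slc16a1 in enteroendocrine cells without ENR- or Hyper-organoids replicate 1, at 0.92 and 0.86. Slc16a1 UMIs in enteroendocrine cells numbered 13 to 20 in an ENR-organoid and 44 to 78 in a Hyper-organoid library, so these values rest on few molecules.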

How the results depend on the processing

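The count of members called was 6 to 9 between Hyper- and ENR-organoids and 2 to 4 between Hyper- and -VE-organoids over all alternatives run. The lowest leave-one-out count of the first, 6, came without Hyper-organoids replicate 3. Between -VE- and ENR-organoids, where 2 were called, it was 1 with a 10 CPM filter, 4 over all deposited barcodes, 0 in stem cells, 0 with classes weighted equally, and 0 to 2 when 1 library was left out (1 without ENR-organoids replicate 1 or 3, 0 without replicate 2). The number of all genes called moved with these settings too. Between Hyper- and ENR-organoids it was 3675 of 16037 in the main fit and 800 of 8419 with a 10 CPM filter. Equal class weights gave 2067 of 17049. Between -VE- and ENR-organoids it was 409 of 16037 in the main fit and 669 of 16327 over all deposited barcodes. There stem cells gave 70 of 13920 and equal class weights 78 of 17049. The name prefix as a replicate block left the counts of members at 9, 3 and 2. Among the 13 members given by library the block changed 3 passes of the adjusted p, all under 2-fold. They are given in the report for Pkm, Ldha and Slc16a3. By direction, the main fit of Hyper- against ENR-organoids called 4 members higher and 5 lower (762 of 16037 genes lower). Upper-quartile factors gave 5 and 2 (674 of 16037 genes lower). The 10 CPM filter, with 25 members tested, gave 5 and 1 (217 of 8419). Stem cells gave 7 and 1 (390 of 13920) and equal class weights 5 and 1 (389 of 17049). Without Hyper-organoids replicate 3 the counts were 4 and 2 (799 of 15815). Within prefixes the Ldhb share differences were 3.34, 3.13 and 0.00743 points. The Ldhb share difference from ENR-organoids, 3.34 points, was 3.89 as a mean over cells and 2.20 as a mean of class shares, and from -VE-organoids 3.89 and 2.19. Leaving out 1 library gave 3.14 to 3.61, 3.13 to 3.60 and, for -VE against ENR, 0.000875 (without -VE-organoids replicate 1) to 0.0162. That last difference was negative in stem cells (-0.00774) and as a mean over cells (-0.00286).

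Of 686 alternative values of log2 changes of 13 named members, 599 kept direction and side, 50 lost and 25 gained the threshold and 12 turned: Ldha from ENR- to Hyper-organoids (0.0357 with upper-quartile factors, 0.0578 with a 10 CPM filter, 0.20 in stem cells, 0.28 with equal class weights, which passed, -0.109 to 0.00163 leaving out 1 library, the latter without ENR-organoids replicate 2), Hk1 from ENR- to -VE-organoids (-0.0422 with equal class weights), Hk2 with equal class weights (-0.15 to Hyper-, -0.19 to -VE-organoids), Ldhb from ENR- to -VE-organoids in stem cells (-0.38), and from -VE- to Hyper-organoids Pdk2 (0.23 in stem cells, -0.33 to 0.10 leaving out 1 library, the latter without -VE-organoids replicate 1) and Pklr (0.07245 in stem cells). Of 450 isoform share differences 14 turned. From ENR- to -VE-organoids these were Aldoc (0.563 points with relatives added), Pfkl (-4.02 in stem cells, -0.428 without -VE-organoids replicate 1, -0.468 without ENR-organoids replicate 3, leave-one-out range -0.468 to 1.43), Pfkp (4.84, 0.415 and 0.720 likewise, range -1.09 to 0.720), Pfkm (0.0134 without -VE-organoids replicate 1, range -0.341 to 0.0134) and Pdk3 (-0.275, -0.417 and -0.322 as for Pfkl, range -0.417 to 0.791). The others were Pdk1 from ENR- to Hyper-organoids (0.120 in stem cells) and Pdk2 from -VE- to Hyper-organoids (-0.304 without -VE-organoids replicate 2, -0.283 without Hyper-organoids replicate 2, range -0.304 to 0.692). The causes were not tested.

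Class counts were rerun without each library after the data were seen. From ENR- to Hyper-organoids they were 5 to 9 in enterocytes, 3 to 6 in enteroendocrine, 5 to 9 in goblet, 7 to 8 in stem and 4 to 6 in transit-amplifying cells, from -VE- to Hyper-organoids 2 to 4, 0 to 3, 2 to 3, 2 and 2, and from ENR- to -VE-organoids 2 to 5 in enterocytes, 0 to 3 in Paneth cells and 0 to 1 in stem and in transit-amplifying cells. The number of all genes called moved in these reruns as well. From ENR- to Hyper-organoids it was 818 of 11050 in enteroendocrine cells, and 628 of 10735 without Hyper-organoids replicate 2. From ENR- to -VE-organoids it was 64 of 5995 in Paneth cells, and 66 of 5798 without ENR-organoids replicate 3. Members whose change differed from stem cells numbered 2 to 3 in enteroendocrine and 1 to 2 in goblet cells. The Slc16a3 ratio between the colonic libraries, 7.36, was 2.25 over all deposited barcodes, 5.01 without cluster 9, 4.77 without cluster 15, 2.18 without both and 4.13 without clusters 9, 12 and 15. Depth limits Eno2, Pgam2 and Ldhb outside Hyper-organoids, where whole libraries held 0 to 60 UMIs. With 2 or 3 libraries a group, no share difference can pass an exact test at 0.05, and the colonic values have no replicate.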
